A study of Mus musculus with 4 samples.

Results

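The genes described here are 32 genes of cholesterol and fatty acid synthesis and of its control by the SREBP transcription factors, chosen by name and matched by symbol among 55536 annotated mouse genes. All 32 were found. They were measured by sequencing of polyadenylated RNA from macrophages grown out of bone marrow of C57BL/6J mice, which are primary phagocytes and not a cell line. There was 1 group, of 4 libraries numbered as biological replicates 1 to 4, all from cells exposed for 60 minutes to a stimulus dosed at 100 ng/mL. One label names this agent lipid A and other labels name it lipoprotein A, so it is called the stimulus. The age and sex of the mice were not recorded. The libraries share 1 donor label and nothing tells whether different animals or dishes lie behind them, so a p-value here speaks only of the spread between these samples, and that spread may be technical. No unstimulated cells were analysed here, and no response to the stimulus is measured: the comparisons are between genes and between libraries. Libraries held between 26917324 and 39438414 gene-assigned expected counts, and ribosomal RNA made up between 3.26% and 12.3% of them.

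Cholesterol is built from acetyl-CoA through mevalonate, isoprenoid diphosphates, squalene and lanosterol, and fatty acids are built from the same acetyl-CoA through malonyl-CoA, then elongated and desaturated. SREBP-2 and the SREBP-1 forms are transcription factors made as membrane-bound precursors. Their escort SCAP carries them from the endoplasmic reticulum to the Golgi for cleavage when sterols are low, and INSIG proteins hold SCAP back when sterols are high. In macrophages this control is set against the uptake of cholesterol with engulfed material, and the same cells export or esterify the excess. The listed genes do not cover every step of these pathways.

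SREBPs act at sterol regulatory elements and E-boxes, usually beside sites for NF-Y and Sp1, so the stretches just before a few start sites are shown. RefSeq promoter windows on GRCm38.p6, from 250 bases before to 50 after a start, were matched for 25 of the 32 genes; Fdps, Fdft1, Sqle, Scd1, Scd2, Fads1 and Stard4 were not among them. Capitals mark matches on either strand to TCACNCCAC (a sterol regulatory element), CACGTG (an E-box) or CCAAT (the NF-Y box, ATTGG on the other strand), and annotated exon bases are left out. Hmgcs1 (chr13:119690101-119690350, plus strand) is the member with a TCACNCCAC match. The other 4 were chosen after the matches had been seen. Insig1 (chr5:28071162-28071362, plus strand) is the most abundant member and has an E-box. Mvk (chr5:114444061-114444268, plus strand) and Fasn (chr11:120824548-120824797, minus strand) have clustered CCAAT boxes. Insig2 (chr1:121328025-121328091, minus strand, 1 of its annotated starts) has none of the motifs marked in capitals, although the window of another Insig2 start holds CCAAT boxes. The Sp1 box GGGCGG is not marked, and the Insig2 stretch has it at positions -6 to -1 from the start.
Hmgcs1: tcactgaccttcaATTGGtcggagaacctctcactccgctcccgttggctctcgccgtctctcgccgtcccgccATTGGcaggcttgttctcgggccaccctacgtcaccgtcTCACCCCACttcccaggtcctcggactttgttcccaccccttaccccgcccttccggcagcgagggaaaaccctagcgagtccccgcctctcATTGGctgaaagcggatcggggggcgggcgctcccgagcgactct
Insig1: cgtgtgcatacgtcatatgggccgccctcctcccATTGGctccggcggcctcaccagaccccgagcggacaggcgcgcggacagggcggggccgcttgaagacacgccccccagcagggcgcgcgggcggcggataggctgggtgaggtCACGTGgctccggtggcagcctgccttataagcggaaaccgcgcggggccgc
Mvk: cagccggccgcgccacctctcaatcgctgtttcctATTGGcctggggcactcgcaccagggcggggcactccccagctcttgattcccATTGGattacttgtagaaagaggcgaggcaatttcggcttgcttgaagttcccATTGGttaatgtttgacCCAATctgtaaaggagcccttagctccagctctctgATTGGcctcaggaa
Fasn: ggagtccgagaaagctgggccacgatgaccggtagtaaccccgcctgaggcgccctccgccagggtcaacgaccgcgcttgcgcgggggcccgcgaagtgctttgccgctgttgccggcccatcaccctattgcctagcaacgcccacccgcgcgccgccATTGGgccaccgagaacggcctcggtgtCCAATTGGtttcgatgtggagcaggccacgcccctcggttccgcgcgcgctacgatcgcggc
Insig2: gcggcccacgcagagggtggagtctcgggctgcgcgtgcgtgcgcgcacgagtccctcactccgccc

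Counted from the start, the Hmgcs1 element lies at positions -137 to -129 and the Insig1 E-box at -101 to -96. The capitals of the Fasn stretch include 2 CCAAT boxes on opposite strands that overlap. Over the whole windows TCACNCCAC was in 1 of 25 members with an entry (4.0%), against 1.44% of 27025 mouse genes. The E-box was in 5 members (20.0%, against 8.09% of genes), which are Insig1, Scap, Dhcr7, Hsd17b7 and Sc5d. CCAAT was in 20 members (80.0%, against 41.1% of genes), and the Sp1 box GGGCGG was in 21 (84.0%, against 38.2% of genes). A match is a description of letters and not a bound site, and a missing match says only that these letters are not in the window.

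Every one of the 32 genes reached 1 TPM (a relative transcript level corrected for length) in every library, 26 of them averaged at least 10 TPM, and 2 averaged at least 100 TPM. Their median was 18.5 TPM, against 11.3 TPM for all genes whose counts averaged 10 or more. The order of levels began with Insig1 and Msmo1, then Hmgcs1, Fdps and Scd2, and it ended with Lss, Scd1 and Elovl6. Neighbours in this order differed in mean by less than the larger of their SDs over libraries, except Msmo1 and Hmgcs1, whose means of 110 and 78.1 TPM lay slightly farther apart than the larger SD of 31.9 TPM. By role, the median level was 29.3 TPM for the 4 desaturases, 20.6 TPM for the 5 genes of SREBP control, 20.1 TPM for the 11 squalene and sterol genes, 18.8 TPM for Stard4, 18.1 TPM for the 7 mevalonate genes and 13.5 TPM for the 4 genes of fatty acid synthesis and elongation.

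**Figure D1:**
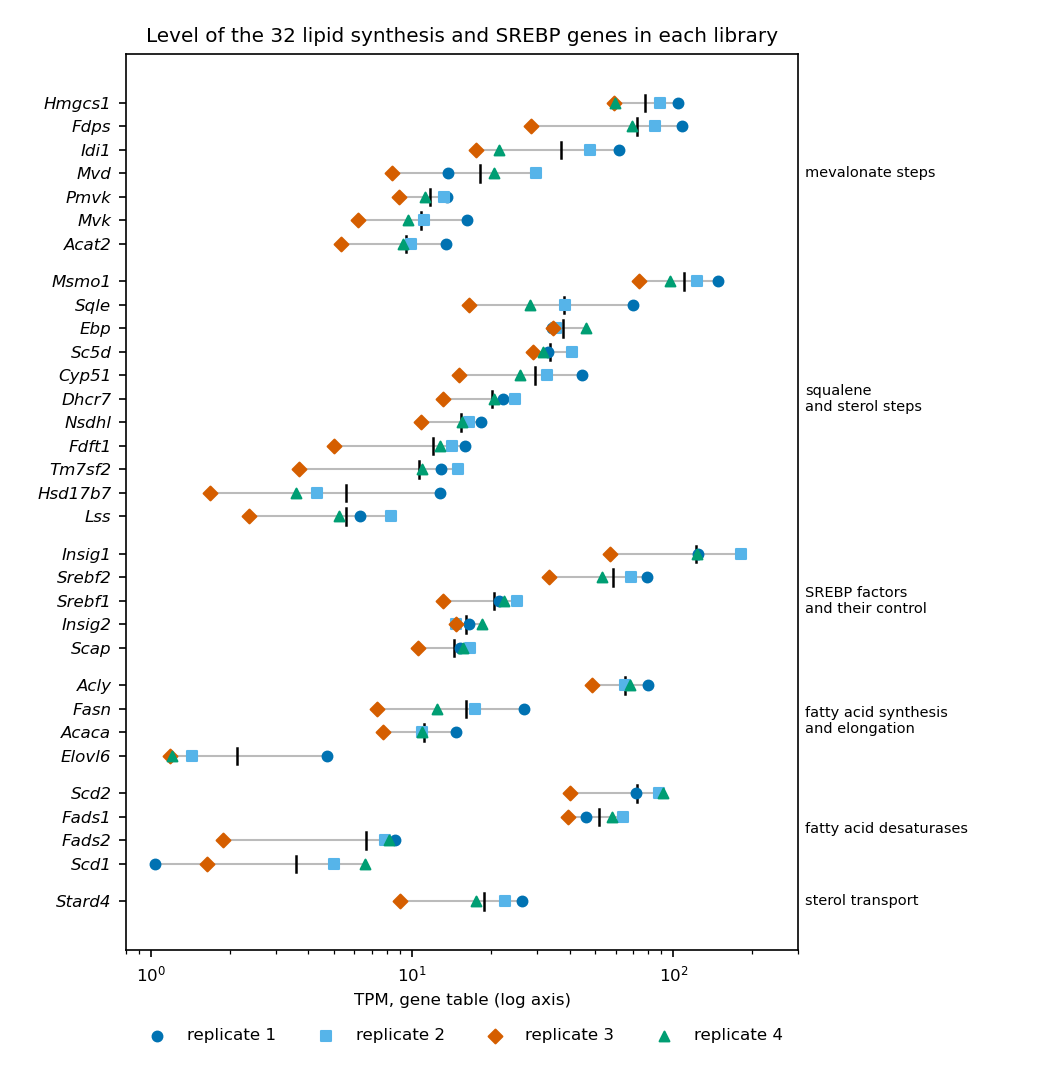
Level of each of the 32 genes in each library, in TPM on a log axis, grouped by role; each symbol is 1 replicate, the grey line spans the 4 libraries and the black tick is their mean. The diamonds of replicate 3 lie at the left end of 30 of the 32 rows, and Ebp and Scd1 are the exceptions. Some lie there by little, such as Insig2 at 14.72 TPM against 14.73 TPM in replicate 2. The share of all genes lowest in replicate 3 by TPM was not taken.

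Variation between libraries was tested for each gene by a chi-square test of equal scaled counts, adjusted over 12626 genes. A gene is called variable where the adjusted p was below 0.05 and the highest scaled count was at least 2-fold the lowest. The test covers counting error only. Of the 32 genes, 19 were called variable, against 33.0% of all genes tested. The same share stands beside the counts called by role below. Counting error, as this test takes it, was exceeded by all 32 (the highest adjusted chi-square p was 6.10e-04, for Pmvk), as it was by 88.6% of all genes. The range had a median of 2.46-fold over the members, against 1.68-fold over all genes tested. Srebf1 was just outside the 2-fold limit, at 1.99995-fold. The narrowest range among the called members was 2.299402-fold, for Scd2.

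The mevalonate branch makes the isoprenoid units from which sterols, dolichol, ubiquinone and prenyl anchors are built, and 5 of its 7 genes were called variable. Hmgcs1 encodes the cytosolic synthase that makes HMG-CoA, and it was the most abundant of the branch. Its levels in replicates 1 to 4 were 104.0, 89.1, 59.4 and 59.9 TPM (78.1 ± 22.2 TPM, SD, n = 4; means ± SD below are over the same 4 libraries). Replicates 1 and 2 were the higher pair, but the range of its scaled counts was 1.58-fold and it was not called. Fdps, the farnesyl diphosphate synthase at the branch point to non-sterol isoprenoids, had 107.9, 84.8, 28.5 and 69.5 TPM (72.7 ± 33.4 TPM). Its range was 3.54-fold, and replicate 3 stood below the other 3 libraries. Idi1, the isomerase of isopentenyl diphosphate, had 61.8, 47.9, 17.5 and 21.4 TPM (37.2 ± 21.3 TPM). For Idi1 replicates 3 and 4 both stood far below replicates 1 and 2, and its range was 3.14-fold. Mvd, the decarboxylase that yields isopentenyl diphosphate, had 13.7, 29.8, 8.34 and 20.6 TPM (18.1 ± 9.27 TPM) and was the 1 gene of the branch that was highest in replicate 2. Its range was 3.4-fold. Mvk, mevalonate kinase, had 16.1, 11.1, 6.21 and 9.60 TPM, and Acat2, the cytosolic thiolase that joins acetyl-CoA units, had 13.5, 9.89, 5.35 and 9.24 TPM. Both were called, at 2.56-fold and 2.35-fold. Pmvk, the next kinase, averaged 11.7 ± 2.15 TPM and had a range of 1.43-fold.

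The squalene and sterol genes turn farnesyl diphosphate into cholesterol, and 6 of 11 were called variable. Msmo1, a sterol methyl oxidase, was the most abundant at 147.8, 122.7, 73.9 and 97.3 TPM (110 ± 31.9 TPM). Replicate 3 was its lowest library, but its range of 1.94-fold stayed under the limit; it was 2.06-fold in a second quantification, which called it. Sqle encodes squalene epoxidase, a rate-limiting oxygen-dependent step, and had 70.0, 38.3, 16.5 and 28.1 TPM (38.2 ± 23.0 TPM). Replicate 1 stood above all others and replicate 3 below them, over a range of 3.93-fold. Cyp51, the demethylase of lanosterol, had 44.5, 32.8, 15.1 and 25.8 TPM (29.6 ± 12.3 TPM) and a range of 2.71-fold. Hsd17b7, a sterol ketoreductase, had the widest range of the cholesterol genes, 6.37-fold: 12.7, 4.30, 1.68 and 3.59 TPM. Only replicate 1 of that gene was above 5 TPM, and without it the range was 2.42-fold, below that of Tm7sf2. Tm7sf2, a sterol reductase, had 12.9, 14.9, 3.67 and 10.9 TPM (range 4.36-fold), Fdft1, squalene synthase, had 15.8, 14.2, 5.02 and 12.7 TPM (2.99-fold), and Lss, which closes the rings to lanosterol, had 6.31, 8.30, 2.36 and 5.24 TPM (2.72-fold). In these 3 genes replicate 3 was the low library and the other 3 lay closer together.

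The remaining sterol genes had narrower ranges. Ebp, the sterol isomerase, had 34.2, 35.4, 34.7 and 46.3 TPM (37.7 ± 5.79 TPM, range 1.39-fold), and it was the 1 sterol gene that was not lowest in replicate 3. Sc5d, a sterol desaturase, averaged 33.6 ± 5.20 TPM (1.39-fold), Dhcr7, the reductase that makes cholesterol from its last precursor in one branch, 20.1 ± 5.0 TPM (1.74-fold), and Nsdhl, a dehydrogenase that removes carboxyl groups left by Msmo1, 15.3 ± 3.21 TPM (1.57-fold). None of these 4 was called variable under any setting, except Dhcr7 and Nsdhl at the lower limit of 1.5-fold. Some of the sterol genes overlap another gene, and since the strand setting of the counting is not given, reads of the overlap cannot be assigned with certainty. Fdft1 overlaps Ctsb, the cathepsin B gene at 11306.8 TPM, on the opposite strand. Tm7sf2 shares its strand with Vps51 (27.4 TPM), Cyp51 lies opposite Akap9 (9.97 TPM), and the mevalonate gene Mvd lies opposite Gm20388 (27.6 TPM).

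Of the 5 genes of SREBP control, Insig1 and Srebf2 were called variable. Insig1, itself a target of SREBPs in many cells, was the most abundant of all 32 genes and ranked 966 among protein-coding genes. It stood at 124.6, 182.2, 57.1 and 122.9 TPM (122 ± 51.1 TPM, range 2.99-fold), with replicate 2 highest and replicate 3 lowest. Its relative Insig2 had 16.5, 14.7, 14.7 and 18.5 TPM (16.1 ± 1.81 TPM). Insig2 had the narrowest range of the 32 genes, 1.27-fold, and it was the only member with none of its 6 pairs of deposited credibility intervals apart. At least 1 pair was apart in the other 31, and in 77.5% of all genes that reached 1 TPM in every library. The Insig2 intervals were wide, from 16.4 to 31.5 TPM in replicate 1, so overlap says little. They began above its TPM in replicates 2 and 3, at 15.6 and 16.0 TPM. Such misses were not particular to Insig2. The Insig1 intervals of replicates 1, 2 and 4 ended below its TPM, at 119, 175 and 122 TPM. Those of Scd2 ended below its TPM in every library, such as 68.4 against 71.7 TPM in replicate 1. How many of all genes had intervals that missed their TPM was not taken. The ratio of Insig1 to Insig2 was 7.54, 12.4, 3.88 and 6.63, so the excess of Insig1 was smallest in replicate 3.

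Srebf2, which encodes SREBP-2, the main activator of cholesterol genes, had 79.1, 69.0, 33.2 and 53.2 TPM (58.6 ± 20.0 TPM, range 2.31-fold). Srebf1, which encodes SREBP-1a and SREBP-1c from separate first exons, had 21.5, 25.2, 13.1 and 22.5 TPM (20.6 ± 5.26 TPM) and lies opposite Rai1 (7.0 TPM). Srebf2 stood above Srebf1 in every library, by 3.67, 2.73, 2.55 and 2.36 times, and by 2.06 times on average in the second quantification. Scap, the escort, had 15.3, 16.6, 10.5 and 15.6 TPM (14.5 ± 2.74 TPM, 1.62-fold).

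**Figure D2:**
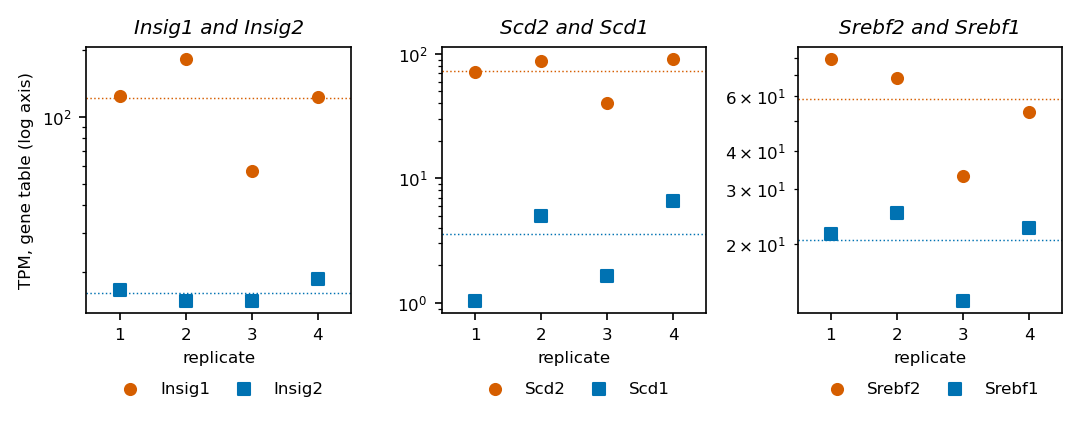
Level in TPM (log axis) of 3 pairs of related genes in replicates 1 to 4; circles and squares are single libraries and dotted lines the means over 4 libraries. Insig1 varied 2.99-fold in scaled counts over libraries in which Insig2 varied 1.27-fold, while Srebf2 and Srebf1 were both lowest in replicate 3.

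The first exon used by Srebf1 separates the strong activator SREBP-1a from SREBP-1c, the form that liver makes most of. The transcript Srebf1-201 starts at the upstream exon (chromosome 11, 60220453 to 60220604, minus strand), which holds 91 coding bases. Srebf1-207 starts at the downstream exon (60210336 to 60210465), which holds 19. The difference of 72 bases is 24 codons of the activation domain, so Srebf1-201 is the 1a form and Srebf1-207 the 1c form. Of the TPM of these 2 transcripts, the 1a form had 88.6%, 94.6%, 94.2% and 86.6% in replicates 1 to 4 (91.0% ± 3.99). It was the larger share in every library, also in the second quantification, where it was 80.6% ± 6.46. Of all Srebf1 TPM the 1a form made up 69.2% ± 9.30 and the 1c form 7.0% ± 3.58, and a short non-coding transcript, Srebf1-210, had 12.8% ± 10.8. In the second quantification the 1a form was a smaller share of the whole gene, 45.6% ± 3.97, and the 1c form 11.3% ± 4.78. For Srebf2, the full-length Srebf2-201 held 75.2% ± 3.43 and a retained-intron transcript, Srebf2-205, held 18.4%, 18.3%, 28.4% and 23.8%. The Srebf2-205 share was largest in replicate 3, the library in which the gene as a whole was lowest. The level of Srebf2-205 itself was also lowest there, at 14.6, 12.6, 9.45 and 12.7 TPM in replicates 1 to 4. By expected counts it was 9.51% ± 2.27 of the gene. Insig1 came almost whole from Insig1-201 (97.4% ± 1.35), and Insig2 mainly from Insig2-201 (70.1% ± 11.0), with 2 short coding transcripts that were at 0 in some libraries.

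Fatty acid synthesis showed 2 called genes of 4. Acly, which cleaves citrate to cytosolic acetyl-CoA and so feeds both pathways, was the most abundant at 79.8, 65.1, 48.9 and 68.0 TPM (65.5 ± 12.8 TPM), and its range was 1.52-fold. Acaca, the acetyl-CoA carboxylase that makes malonyl-CoA, had 14.8, 10.9, 7.75 and 10.9 TPM (11.1 ± 2.87 TPM, 1.54-fold). By TPM it was lowest in replicate 3, but by scaled counts in replicate 2. Fasn, the fatty acid synthase, had 26.8, 17.3, 7.31 and 12.4 TPM (16.0 ± 8.31 TPM) and was called at 4.09-fold, with replicate 1 highest and replicate 3 lowest. Elovl6, which elongates palmitate, was the least abundant member and had 4.73, 1.43, 1.18 and 1.2 TPM. Its 4.01-fold range came from replicate 1 alone: expected counts were 424 there against 148, 150 and 146, and without replicate 1 the range was 1.27-fold.

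Of the 4 desaturases 3 were called variable, 3 had their lowest scaled count in replicate 3 and none had its highest in replicate 1. Scd2, the stearoyl-CoA desaturase of many non-liver tissues, had 71.7, 88.0, 40.1 and 90.8 TPM (72.7 ± 23.3 TPM, 2.30-fold), with replicate 3 lowest. Scd1, the neighbouring desaturase gene on chromosome 19 and a target of SREBP-1c and of the oxysterol receptor LXR, had 1.03, 5.03, 1.64 and 6.59 TPM. Its 7.07-fold range was the widest of the 32 genes and its low library was replicate 1, with 82 expected counts against 800 in replicate 4. It was 4.07-fold without replicate 1 and 3.53-fold without replicate 4, and then no longer the widest. Scd2 exceeded Scd1 by 69.6, 17.5, 24.4 and 13.8 times, so Scd1 was the minor message of the pair in every library. The polyunsaturated fatty acid desaturases Fads1 and Fads2 are neighbours on the same chromosome. Fads1 had 46.4, 63.9, 39.4 and 57.9 TPM (51.9 ± 11.1 TPM) and was not called at 1.55-fold. Fads2 had 8.61, 7.87, 1.88 and 8.16 TPM and was called at 4.40-fold, with replicate 3 apart from 3 libraries that were alike. Stard4, a carrier of cholesterol between membranes, had 26.3, 22.6, 8.94 and 17.5 TPM (18.8 ± 7.51 TPM, 2.63-fold), with replicate 1 highest and replicate 3 lowest.

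**Figure D3:**
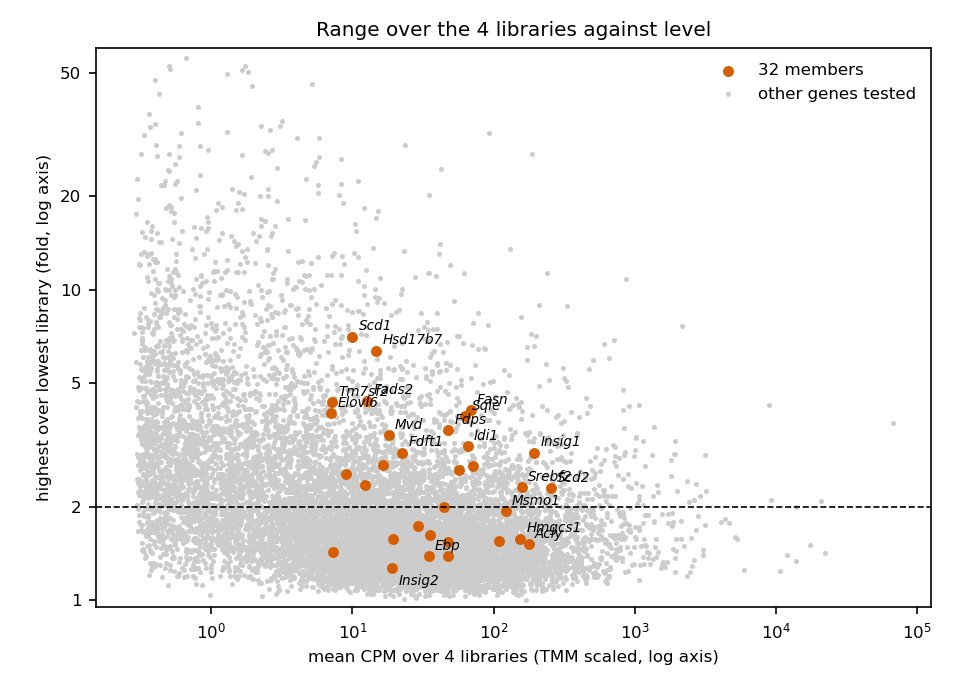
Range over the 4 libraries (highest over lowest scaled count, log axis) against mean scaled CPM (depth-scaled counts, log axis) for the 32 members in orange and all other genes tested in grey; the dashed line is the 2-fold limit. The 19 called members lie above the line and 13 below it, and Insig2 is the lowest orange point.

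Replicate 3 held the lowest scaled count of 26 of the 32 genes, against 24.7% of all genes tested (3124 of 12626). The others were lowest in replicate 1 (3 members, against 32.6% of genes), replicate 2 (1 member) and replicate 4 (2 members). Of the 32 genes, 17 were both variable and lowest in replicate 3, against 6.23% of all genes tested. The median member stood 0.70 log2 units below its own mean in replicate 3, on the scale of log2(CPM + 0.1), and 0.34, 0.27 and 0.12 above it in replicates 1, 2 and 4. By role this deviation in replicate 3 was -0.82 for sterol genes, -0.70 for mevalonate genes, -0.70 for SREBP control, -0.65 for desaturases and -0.43 for fatty acid synthesis. Replicate 1 held the highest scaled count of 19 members, against 35.8% of all genes, and these included 6 of the 7 mevalonate genes and all 4 genes of fatty acid synthesis. Replicate 2 was highest for 7 members, against 22.8% of genes. Summed over the 32 genes, the level was 1285.7, 1228.8, 626.0 and 1005.4 TPM in replicates 1 to 4. The libraries do not share a measured cell number, and in bulk RNA fewer cells that express a gene and less of its RNA per cell cannot be told apart.

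**Figure D4:**
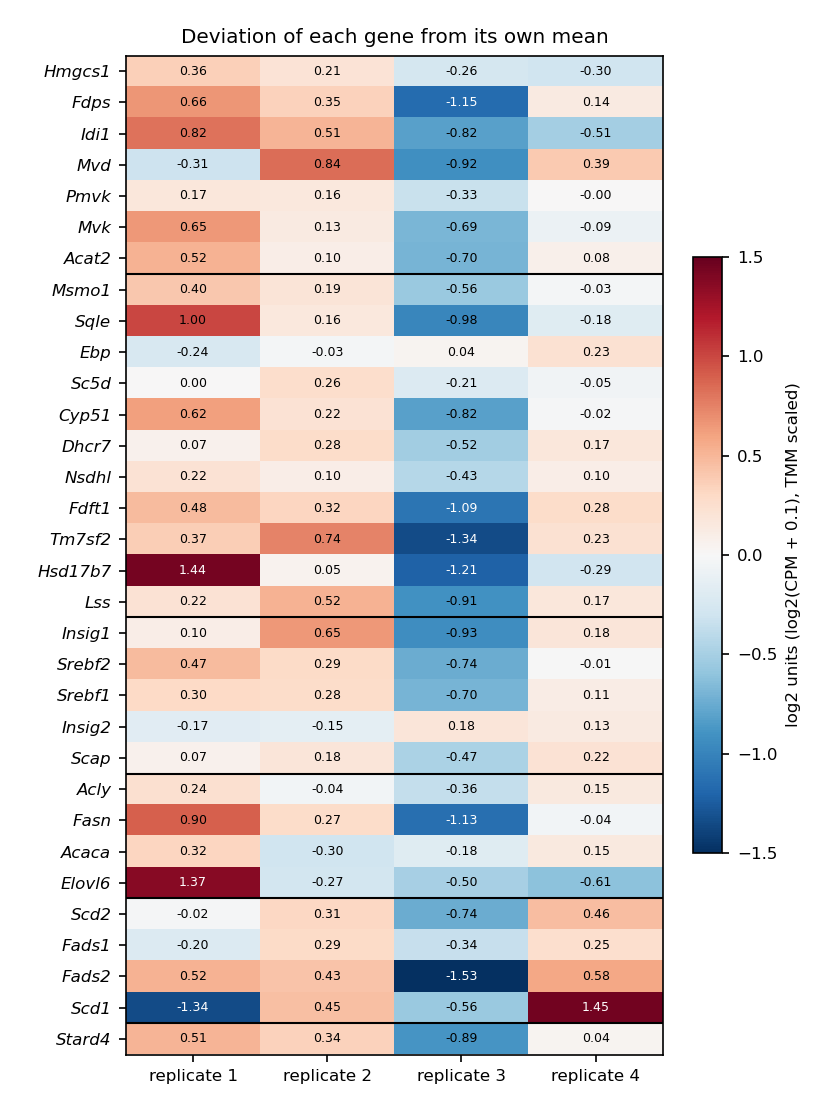
Deviation of each gene in each library from its own mean over 4 libraries, in log2 units of scaled CPM with 0.1 added; red is above and blue below the mean, and horizontal lines separate the roles. The replicate 3 column is negative for all members but Ebp and Insig2, with a median of -0.70.

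The low values of replicate 3 decided most of the calls. Without that library 6 members were called variable, against 26.5% of all genes. The 13 members whose call was lost without it had ranges from 1.11-fold to 1.91-fold in the other 3 libraries. They were Insig1 (1.47-fold), Srebf2 (1.39-fold), Acat2 (1.36-fold), Mvk (1.68-fold), Fdps (1.44-fold), Fdft1 (1.15-fold), Lss (1.28-fold), Cyp51 (1.56-fold), Tm7sf2 (1.43-fold), Fasn (1.91-fold), Scd2 (1.4-fold), Fads2 (1.11-fold) and Stard4 (1.38-fold). Among the rest, the range without replicate 3 was 2.27-fold for Sqle, 3.35-fold for Hsd17b7, 2.22-fold for Mvd and 1.14-fold for Srebf1. Without replicate 1 there were 16 called members, against 16.1% of all genes, and Acat2, Mvk and Elovl6 lost their call. The ranges of Sqle and Fasn were then 2.2-fold and 2.65-fold. Mvd, Idi1, Sqle, Hsd17b7 and Scd1 were called in every setting tried. The count of members lowest in replicate 3 was also 26 under each other library scaling and in the second quantification, and it was 30 by TPM.

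**Figure D5:**
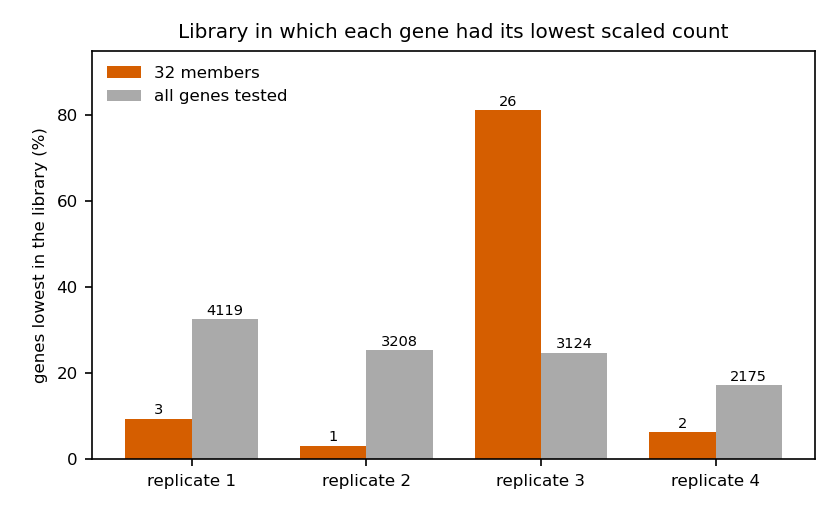
Share of the 32 members (orange) and of all 12626 genes tested (grey) whose lowest scaled count was in each library, in %; numbers above the bars are counts of genes. For the members 26 fall in replicate 3, where 3124 of all genes do.

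Some measures of the libraries were also extreme in replicate 3, and their part in the result was not tested. Neutrophil and granulocyte precursor markers summed to 198, 108, 729 and 69.0 TPM in replicates 1 to 4. Of these 8 markers all 5 with enough counts to be tested were highest in replicate 3, against 20.1% of all genes. S100a9, the most abundant, had 100.7, 61.6, 456.6 and 41.9 TPM, and of the 8 only Retnlg was at 0 in any library. Mitochondrially encoded genes held 3.11% of counts in replicate 3 and between 1.31% and 2.12% in the others. Macrophage markers were all above 1 TPM in every library (7 of 7), but their levels were not even. Of the 7, 3 were called variable, against 33.0% of all genes tested. Lyz2, the most abundant, had 14540.7, 28530.0, 14293.0 and 21375.3 TPM (19684.8 ± 6748.6 TPM). Markers of cells known for high lipid synthesis were at or near 0: all 4 adipocyte genes were at 0, and of 3 hepatocyte genes only Apoa1 was above 0, at 0.05 TPM in replicate 4. B cell, T cell, dendritic cell and stromal and endothelial markers summed to at most 1.5 TPM in any library. Proliferation genes followed another order. Of 11 such genes 10 were called variable, against 33.0% of all genes tested. Their median deviation was 1.57, -1.01, 0.27 and -0.62 log2 units in replicates 1 to 4. Replicate 1, the library with the highest levels of most mevalonate genes, was thus also the one with the highest levels of 9 of the 11 proliferation genes. Of all genes tested 35.8% were highest in replicate 1.

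In the deposited file lists replicates 3 and 4 have 4 read files apiece and replicates 1 and 2 have 6, which no source calls a batch. Set against each other by edgeR's quasi-likelihood test, 29 of the 32 genes had a lower level in replicates 3 and 4, with a median log2 fold change of -0.58, against -0.02 for all genes. Without replicate 3 this median was -0.22, with 22 members lower, and without replicate 4 it was -1.06, with 30 lower. No member and none of 12701 genes (0.0%) passed an adjusted p of 0.05. At an unadjusted p below 0.05 there were 4 members, against 2.28% of genes (290): Idi1 (log2 fold change -1.34, SE 0.26), Sqle (-1.17, SE 0.40), Hsd17b7 (-1.60, SE 0.55) and Fasn (-1.11, SE 0.43). DESeq2 called 37 genes (0.268%), of which Idi1 was the only member, at -1.33 (adjusted p = 0.0492, and from 0.0492 to 1.0 over the fits tried). Both libraries with 4 read files lay below both with 6 in 19 members, against 12.2% of genes, and above them in Ebp and Insig2, against 12.3%. In each pair taken alone, 29 members were lower in replicate 3 than in replicate 4, against 54.4% of genes, and 20 were lower in replicate 2 than in replicate 1, against 50.8%.

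Among 15 genes whose products cleave SREBPs, turn over INSIGs and SREBPs or bind beside SREBPs at promoters, the median range was 1.21-fold, against 1.68-fold for all genes tested. Of them 2 were called, against 33.0% of all genes tested. They were Rnf145, a ubiquitin ligase of sterol control, at 12.2, 26.5, 14.6 and 16.9 TPM and Fbxw7, which marks nuclear SREBPs for breakdown, at 8.55, 15.1, 17.9 and 14.4 TPM. Neither was lowest in replicate 3. Of 17 other lipid synthesis genes and SREBP targets that could be tested 5 were called, against the same 33.0% of all genes. Acss2, which makes acetyl-CoA from acetate, had 1.98, 8.67, 3.18 and 7.29 TPM, and Lpin1, a phosphatidate phosphatase, had 4.19, 19.8, 11.8 and 17.5 TPM, so both were lowest in replicate 1 as Scd1 was. Aacs, which makes acetoacetyl-CoA in the cytosol and is given here after its values were seen, had 17.0, 14.3, 7.17 and 9.02 TPM (2.19-fold), with replicate 3 lowest. Hsd17b12, a ketoreductase of fatty acid elongation, had 201.1, 77.3, 106.0 and 92.6 TPM, with replicate 1 highest. Of the 17 genes, 5 were lowest in replicate 1, 5 in replicate 2, 6 in replicate 3 and 1 in replicate 4. The shares of all genes tested were 32.6%, 25.4%, 24.7% and 17.2%. Replicate 3 was below replicate 4 in 13 of the 17, against 54.4% of all genes.

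Of 11 LXR and oxysterol genes that could be tested 6 were called variable, against 33.0% of all genes tested. Abcg1, a cholesterol exporter, had 14.5, 53.9, 77.1 and 71.6 TPM and Cyp27a1, which makes an oxysterol in mitochondria, had 5.54, 69.1, 44.0 and 57.7 TPM. Both were lowest in replicate 1, as were 6 of the 11 genes in all, against 32.6% of all genes tested. Ch25h, which makes the oxysterol that blocks SREBP processing, had 15.2, 14.5, 1.72 and 5.50 TPM, and it was lowest in replicate 3 together with 26 of the 32 members. Plin2, which coats lipid droplets, had 1398.1, 497.6, 1575.0 and 844.7 TPM and was highest in replicate 3. Whether the levels of these genes are linked to those of the 32 members was not tested.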

How the data were processed

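Polyadenylated RNA of 4 libraries of 1 group was analysed. Each had a gene table made from a transcriptome alignment and 2 transcript tables, on mm10 with GENCODE M21, per the deposited file lists. Which tools and versions were used, and how strand was treated, is not given in the sources used here. Per the file headers the deposited columns are expected counts, and TPM, which the authors scaled over all rows. Credibility interval bounds for TPM, a deposited signal that is never negative, come without a stated level. The second transcript table, made from the reads directly, was summed to genes and is the second quantification. Of 81881 table rows 55536 were genes, and the other 26345 (0.113% of counts) were left out.

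Expected counts were rounded and scaled by TMM in edgeR 4.0.16 (R 4.3.3). Genes whose counts averaged 10 or more entered the chi-square test with 3 degrees of freedom, with Benjamini-Hochberg adjustment at 0.05. The test covers counting error only, and it may understate that error, since sequenced fragments are not independent molecules. The contrast of read-file numbers used edgeR's quasi-likelihood test (limma 3.58.1 loaded beside it), with DESeq2 1.42.0 as an alternative. The common biological coefficient of variation was 31.0%. Other values came from Python 3.11.15 with NumPy 2.4.6, SciPy 1.17.1 and pandas 2.3.3, and figures from matplotlib 3.10.9. Both tests were run on simulated data. For the chi-square test the simulated noise was counting error only. That run cannot show how often the test errs in these libraries.

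The 32 members and the other gene lists were chosen with earlier results of these data known. All members were named; of each other pathway list the rule named the 3 highest genes and the 3 with the widest range, from which those printed were taken, and of each marker list the highest. Alternatives were other scalings, count limits, a 1.5-fold limit, the second quantification, no ribosomal and mitochondrial genes, and each library left out.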

Additional observations from a re-analysis of the deposited data

Results flagged for a closer look

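In 3 of the 32 members 1 library stood apart from the other 3 by Dixon's gap ratio, which chance exceeds in about 1 in 20 groups. The share over all genes was not taken, so the count of 3 is not a result about the members. Elovl6 was high in replicate 1 (4.73 TPM, gap ratio 0.930), Ebp was high in replicate 4 (46.3 TPM, gap ratio 0.899) and Fads2 was low in replicate 3 (1.88 TPM, gap ratio 0.890). The other genes named had been picked by level or by wide range. Among them, replicate 1 stood apart for the replication genes Mcm2 (gap ratio 0.896), Mcm5 (0.840) and Mcm6 (0.865). Replicate 3 stood apart for the neutrophil gene S100a9 (0.858). The causes were not tested.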

How the results depend on the processing

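The number of members called variable stayed at 19 under both other library scalings (33.1% and 33.3% of all genes tested). It was also 19 without ribosomal and mitochondrial genes (33.1%), without a count limit (24.4%) and with a mean count of at least 50 (27.3%). In the second quantification 21 members were called, against 36.1% of genes, and at a 1.5-fold limit 28, against 58.2%. Leaving out 1 library at a time gave 6 to 19 members, against 16.1% to 29.2% of genes. The 6 were without replicate 3, where the share of genes was 26.5%. Over all genes the count was 7347 at a 1.5-fold limit, by construction of the limit, and 2048 to 3683 with 1 library left out. The count of members lowest in replicate 3, whose alternatives were chosen after seeing the data, ran from 26 to 30. The share of all genes was taken for the main scaling only. For the contrast of read-file numbers, edgeR called 0 members in every fit and DESeq2 called 1 (Idi1), while over all genes DESeq2 called 37, edgeR without a count limit 18, the second quantification 10, and fits with 1 library left out 0 to 98, the most without replicate 2. In those fits the lone library is assumed to vary like the others. The second quantification gave an SREBP-1a share of 80.6%, against 91.0%. Where no construction is named, the cause was not tested. No paired analysis was possible because there is 1 group and the 2 sets of libraries share no replicate numbers. Depth limits the members with few counts, of which Scd1 had 82 and Tm7sf2 88 in their lowest library.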

Other observations

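The ratio of Fads1 to Fads2, neighbouring desaturase genes, was 5.39, 8.12, 21 and 7.1 in replicates 1 to 4 in the gene table and 5.38, 7.98, 20.8 and 7.04 in the second quantification, so in replicate 3 the Fads2 message was low against that of its neighbour. Scd2 came almost whole from 1 transcript, Scd2-201 (99.9% ± 0.118, SD, n = 4), and Scd1 mainly from Scd1-201 (92.4% ± 15.1).

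Among the other sterol and lipid genes, Npc1, which lets cholesterol out of lysosomes, stood at 134.6, 176.8, 208.3 and 181.3 TPM, and Soat1, which esterifies cholesterol, at 214.8, 271.7, 276.7 and 339.2 TPM. Neither was called variable, at ranges of 1.38-fold and 1.87-fold, and both were lowest in replicate 1.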
